A study of Homo sapiens with 6 samples.

Results

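The zinc finger genes of human chromosome 19 were taken as the protein-coding genes of GENCODE release 44 on that chromosome whose symbol is ZNF followed by a number, with or without a closing letter. The rule gave 246 members of 20046 protein-coding genes in all, beside 1230 other protein-coding genes of chromosome 19 and 262 ZNF-numbered genes of other chromosomes. Membership rests on the symbol alone, so zinc finger genes of other names (ZFP, ZSCAN, ZIM and the like) are not among the members, and the presence of finger domains was not examined. In chromosome order, with a gap over 500 kb between neighbouring genes ending a cluster, 232 members fell into 10 clusters of at least 5 members, and 14 members lay outside them. Another 110 protein-coding genes lay inside the same clusters.

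Most of these genes encode DNA-binding proteins with an array of C2H2 zinc fingers in the last exon and, in many, a KRAB domain at the amino end. The KRAB domain binds TRIM28, which brings SETDB1 and HP1 proteins to the bound site and leads to trimethylation of histone H3 at lysine 9, and transposable elements are the best-known targets. The clusters arose by tandem duplication, and the bodies of many of the genes are known to carry H3K9me3 themselves, placed there with the help of ZNF274. H3K27me3, the mark of Polycomb repressive complex 2, is a different silencing mark, deposited by the methyltransferase EZH2. E2F1 is a transcription factor of the cell cycle that binds close to transcription start sites (TSSs).

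The study made chromatin immunoprecipitation libraries (ChIP-seq) from MDA-MB-231, an established human triple-negative breast cancer cell line. E2F1 was precipitated from untreated cells, from cells kept for 72 h in the solvent DMSO and from cells kept for 72 h in 1 µM GSK126, an inhibitor of the catalytic activity of EZH2. H3K27me3 was precipitated from cells exposed for 24 h to lentivirus with either a control shRNA or one that targets E2F1, named shE2F1, and kept under puromycin (2 µg/ml) for 72 h, so both of these groups carry a vector and a drug that the E2F1 groups did not see. An input of untreated cells completes the 6 samples and was not analysed here. Each group is 1 library of 1 cell line, so no difference between conditions below has a replicate check or a test, and the extent of the E2F1 knockdown was not analysed here. H3K9me3 was not among the targets.

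The peak lists held 1056 (untreated), 15703 (DMSO) and 14276 (GSK126) E2F1 peaks and 123957 (control shRNA) and 135683 (shE2F1) H3K27me3 peaks. The lowest background of a list, which scales with the depth of the library, was 0.668 fragments in untreated, 1.82 in DMSO and 1.70 in GSK126. The untreated library was therefore the shallowest of the E2F1 libraries, while DMSO and GSK126 were close to each other. The part of depth in the small untreated count was not tested. A gene was called at its promoter when a peak's summit (E2F1) or midpoint (H3K27me3) lay within 1000 bp of any of its TSSs. Fold is the authors' ratio of signal over background at a peak, and −log10 q is its significance against background within that library. Intervals in brackets are exact 95% Clopper-Pearson intervals, which cover counting error only, and neighbouring genes that share a promoter are not independent.

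The sequence under the E2F1 summit is shown for ZNF43 and ZNF837, which are among the 3 members with the highest fold in untreated cells, and for 3 further members, chosen after their values were seen because their stretches hold an E2F motif. Each is the longest run outside any annotated exon within 150 bp of the summit, on the gene's strand, from GRCh38. Capitals mark an E2F motif, which was searched on both strands in 4 forms, namely TTCCCGC together with TTCGCGC, and further TTGCCGC together with TTGGCGC. The stretches of ZNF43, ZNF837 and ZNF766 lie just upstream of the gene and those of ZNF347 and ZNF83 in an intron, and that of ZNF43 stops short of the summit, which lies in an exon. The stretch of ZNF43 stands at chr19:21852126-21852209 on the minus strand, that of ZNF837 at chr19:58381031-58381212 (minus), that of ZNF766 at chr19:52269434-52269586 (plus), that of ZNF347 at chr19:53158255-53158554 (minus) and that of ZNF83 at chr19:52689960-52690259 (minus).
ZNF43: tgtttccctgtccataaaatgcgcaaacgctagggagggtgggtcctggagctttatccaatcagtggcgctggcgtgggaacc
ZNF837: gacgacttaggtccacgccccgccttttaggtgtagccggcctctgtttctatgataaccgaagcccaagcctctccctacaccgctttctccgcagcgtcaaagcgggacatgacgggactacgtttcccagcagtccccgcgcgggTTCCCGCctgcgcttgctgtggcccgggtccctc
ZNF766: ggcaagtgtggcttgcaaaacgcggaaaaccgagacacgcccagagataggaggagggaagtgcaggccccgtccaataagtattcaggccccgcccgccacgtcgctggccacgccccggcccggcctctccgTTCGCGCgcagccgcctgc
ZNF347: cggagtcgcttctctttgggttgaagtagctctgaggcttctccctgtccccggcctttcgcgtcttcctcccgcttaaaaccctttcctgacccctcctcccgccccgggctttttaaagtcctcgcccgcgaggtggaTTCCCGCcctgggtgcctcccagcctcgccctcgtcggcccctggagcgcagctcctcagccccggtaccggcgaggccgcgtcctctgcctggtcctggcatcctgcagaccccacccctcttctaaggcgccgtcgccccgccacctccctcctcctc
ZNF83: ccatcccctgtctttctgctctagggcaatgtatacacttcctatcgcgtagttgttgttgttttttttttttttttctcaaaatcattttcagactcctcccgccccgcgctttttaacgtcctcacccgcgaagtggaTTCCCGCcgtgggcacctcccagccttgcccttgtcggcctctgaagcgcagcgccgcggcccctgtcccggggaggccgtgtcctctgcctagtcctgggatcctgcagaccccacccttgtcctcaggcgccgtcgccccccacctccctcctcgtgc

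Of the 10 members with an untreated peak, 9 had a stretch outside exons, and 4 of the 9 hold the motif. The stretches run from 6 to 300 bp, and that of ZNF296 is shorter than the motif. Those of ZNF43, ZNF875, ZNF296 and ZNF497 do not reach the summit. The 4 of 9 is therefore no share of summits with the motif, which is given further below. The stretch of ZNF43 holds none of the 4 forms of the motif, whereas the stretches of ZNF837, ZNF347 and ZNF83 hold TTCCCGC and that of ZNF766 holds TTCGCGC. The untreated summits of ZNF347 and ZNF83 lie downstream of their nearest start site, by 599 and 364 bp, and in DMSO and GSK126 that of ZNF347 stayed there while that of ZNF83 stood at the start site itself. Both stretches hold the same run of 13 bases around the motif, GTGGATTCCCGCC, which was noticed in these sequences and is given as a description. Set at the motif without gaps, the pair had the same base at 198 of 300 positions (66.0%). The run occurred within 1000 bp of the canonical TSS of 4 of 20033 protein-coding genes, 3 of which are members of cluster 8 (ZNF836, ZNF610 and ZNF347). All 3 had an E2F1 peak in GSK126, with folds of 6.50, 3.30 and 18.5, and 2 of the 3 had one in DMSO. Of all members of cluster 8, 32 of 39 (82.1%) were called in GSK126. The run was noticed at the peak of ZNF347 itself, so the call of that member was fixed in advance.

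In untreated cells 10 of 246 members had an E2F1 promoter peak (4.07%, interval 1.97 to 7.35%), against 5.83% of all protein-coding genes. ZNF417, one of a pair of paralogues known to bind endogenous retroviruses, had the highest fold of them (18.5, with 42 fragments at the summit), and its fold was 12.8 in DMSO and 23.9 in GSK126. ZNF43 followed with folds of 12.9 in untreated, 15.2 in DMSO and 23.2 in GSK126. ZNF837 had folds of 10.3, 12.4 and 26.1 in the same order. For all 3 the highest of the folds was in GSK126.

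The other members called in untreated cells were ZNF347 (9.26), ZNF766 (8.52), ZNF875 (7.32), ZNF83 (6.66), ZNF296 (5.45), ZNF497 (4.86) and ZNF274 (4.60). ZNF766 had the highest GSK126 fold of all members (40.1, from 20.9 in DMSO). ZNF274, the KRAB protein that recruits SETDB1 to zinc finger gene clusters, had folds of 4.60 in untreated, 12.3 in DMSO and 16.1 in GSK126, from 18, 69 and 81 fragments. ZNF875 was the exception, with no DMSO peak and a GSK126 fold of only 4.22 at a summit well upstream of the start site that held the untreated summit. The other 9 were called in all 3 lists, and in all 9 the GSK126 fold was the highest.

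In DMSO 101 members (41.1%, interval 34.8 to 47.5%) had an E2F1 promoter peak, against 33.4% of all genes. In GSK126 163 members (66.3%, interval 60.0 to 72.1%) had one, against 51.3% of all genes. The ZNF-numbered genes of other chromosomes were close to the members, with 37.8% in DMSO and 67.6% in GSK126, whereas the other genes of chromosome 19 had 30.0% and 49.5%. The other genes inside the clusters were lower still, at 23.6% in DMSO and 38.2% in GSK126. In GSK126 the excess over all genes was seen in ZNF-numbered genes on and off chromosome 19, and not in their neighbours of other names. In DMSO the members' interval lay above the 33.4% of all genes, while that off chromosome 19 reached down to 31.9% and so included it. The other genes inside the clusters had a median of 2 TSSs per gene, against 5 in members and 5 over all genes. They thus had fewer windows for a call, and the part of this in their lower shares was not tested. The GSK126 calls of the 163 members rested on 157 distinct peaks, and for 39 members the peak was also within 1000 bp of a TSS of another protein-coding gene, a member in 13 cases.

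A GSK126 call without a DMSO call was found in 64 members (26.0%, background 18.7%), and a DMSO call without a GSK126 call in 2 (0.813%, background 0.793%). The 2 were ZNF30 (DMSO fold 4.48) and ZNF573 (4.12), both weak peaks of 14 and 17 fragments. The peaks called in GSK126 alone were weaker than the others, with a median fold of 5.44 (3.01 to 12.4), against 8.95 (3.16 to 40.1) for the 99 members called in both lists. In those 99 the median log2 ratio of GSK126 over DMSO fold was 0.79, and GSK126 was higher in 97. Over the 6539 protein-coding genes called in both lists the median was 0.73, with GSK126 higher in 97.2%. At promoters called in both lists the shift in fold was thus close to that of all genes. The share called in GSK126 and not DMSO was above the background in members, as it was in ZNF-numbered genes of other chromosomes (30.9%).

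**Figure D1:**
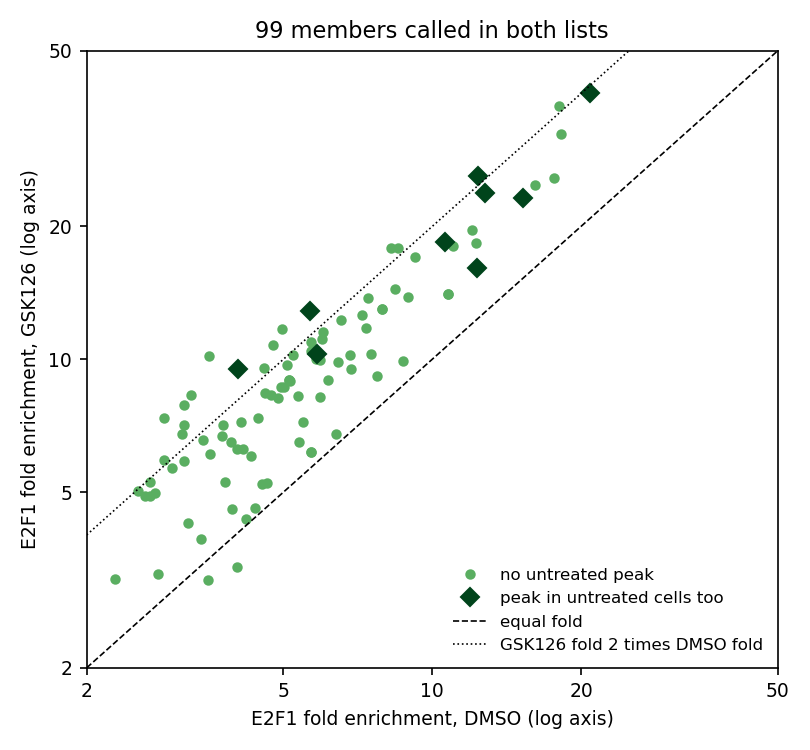
E2F1 fold enrichment at the promoters of the 99 members called in both lists, DMSO on the horizontal and GSK126 on the vertical axis, both logarithmic. Each point is 1 member, and diamonds are the 9 members with a peak in untreated cells too. In 97 of 99 the GSK126 fold is above the DMSO fold, and most points lie between the line of equal fold and the line of 2 times the DMSO fold.

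Among members without an untreated peak, ZNF524, a protein known to bind telomeric DNA, had the highest GSK126 fold (37.5, from 18.0 in DMSO), at a peak that also serves the neighbouring gene FIZ1. ZNF45 followed with 32.4 in GSK126 and 18.2 in DMSO. ZNF611 had 25.7 and 17.6, and ZNF615 24.8 and 16.2. ZNF701 (19.6 and 12), ZNF473 (18.4 and 10.5), ZNF420 (18.3 and 12.2) and ZNF878 (18.0 and 11) complete the 8. All 8 were also called in DMSO, and the ratio of the folds lay between that of ZNF611 and that of ZNF524.

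The summits stood at the start sites. In GSK126 the summit was a median of 7 bp upstream of the member's nearest TSS, it lay within 100 bp of it in 97 of 163 members, and it reached up to 607 bp downstream. Few members held E2F1 away from promoters. A summit inside the gene and over 1000 bp from any TSS of any gene was found in 0 members in untreated cells (0.17% of all genes), in 3 in DMSO (3.85% of all genes) and in 6 in GSK126 (4.87% of all genes). ZNF536, a repressor of neuronal differentiation and the longest member at 489 kb, held 9 of the 11 such summits in DMSO and 1 of the 6 in GSK126. With a −log10 q of at least 5, 3 of the 11 in DMSO were left. Per Mb of gene the members held 1.40 such summits in DMSO and 0.766 in GSK126, against 2.30 and 1.17 over all genes, 1.33 and 2.64 in the other genes of chromosome 19 and 0.875 and 0.292 in ZNF-numbered genes elsewhere. ZNF586 and ZNF552 held 1 in each list, and ZNF709, ZNF675 and ZNF565 1 each in GSK126.

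The share of peaks with an E2F motif was close to that of all genes. The motif stood within 100 bp of the summit in 5 of 10 untreated peaks (54.6% over all genes), in 33 of 97 distinct DMSO peaks (34.0%, against 36.6%) and in 50 of 157 distinct GSK126 peaks (31.8%, against 32%). Of the 216 members with a promoter in RefSeq (GRCh38.p14, 250 bp before to 50 bp after the start), 47 held the motif (21.8%, against 17.4% of the 15366 promoters of protein-coding genes). The share was 25.5% for members with a GSK126 peak and 14.3% for members with no E2F1 peak in any list, but for the motif lengthened by a leading T the shares were 7.59 and 8.57%. The GC content of the 2 kb around the canonical start was lower in members (median 52.2%) than over all genes (56.0%). Within the bands of GC content below 50%, from 50 to 55%, from 55 to 60% and above, the share of members called in GSK126 was 46.2%, 74.7%, 77.2% and 75%, against 23.6%, 52.7%, 61% and 65.4% of all genes. The members' share was thus the higher in each band, but the highest band held only 20 members, 15 of them called.

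Because the members are paralogues, the uniqueness of their promoters was examined. Of the 100-base words within 1000 bp of the canonical start, a median of 100% occurred at 1 place in GRCh38. Only 3 members had under 90% of such words. Words were matched exactly, so a difference of 1 base made a word unique, and other start sites were not scored. Whether reads were placed among paralogues without error was not tested.

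H3K27me3 was called at the promoters of 37 members with control shRNA (15%, interval 10.8 to 20.1%), below the 23.1% of all genes. With shE2F1 it was called at 104 members (42.3%, interval 36.0 to 48.7%), against 46.3% of all genes. The call was present in shE2F1 alone in 68 members (27.6%, background 26.7%), in both libraries in 36 and in control shRNA alone in 1 (0.407%, background 3.58%). The members' share called with shE2F1 alone was close to the background, whereas their share called with control shRNA alone was below it. ZNF-numbered genes of other chromosomes had 18.3% with control shRNA and 51.5% with shE2F1. They had 34.4% with shE2F1 alone and 1.15% with control shRNA alone. Without weak peaks the members' share with shE2F1 alone was above the background, at 24.4% against 17.9% for a −log10 q of 2 or more and 13.0% against 6.54% for 5 or more. When a peak counted that overlapped the window by at least 1 bp, which favours wide domains, the counts were 41 members with control shRNA (background 27%) and 106 with shE2F1 (background 51.0%).

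Where a member was marked, the peak was narrower and had a higher −log10 q than the median over all marked genes. The H3K27me3 peaks are broad calls without a summit, and the part of peak width in their −log10 q was not tested. The median width was 311 bp with control shRNA and 465 bp with shE2F1, against 593 and 606 bp over all genes called. A −log10 q of at least 5 was reached by 18 of the 37 members (48.6%) with control shRNA and by 50 of the 104 (48.1%) with shE2F1, against 11% and 19.5% of all genes called. Counted over all 246 members, calls of that strength were made at 7.32% with control shRNA and 20.3% with shE2F1, against 2.54% and 9.02% of all genes, so the order of members and all genes turned when weak peaks were left out. The ZNF-numbered genes of other chromosomes lay between, with a median width of 317 bp with control shRNA and 572 bp with shE2F1 and a −log10 q of at least 5 in 37.5% and 28.9% of those called. In the 36 members called in both libraries the median fold was 3.91 with control shRNA and 6.13 with shE2F1. The median log2 ratio of shE2F1 over control fold was 0.60 in these members, 0.29 in 45 ZNF-numbered genes of other chromosomes and 0.03 over the 3922 genes called in both, and shE2F1 was higher in 31 of 36 members and in 54.0% of the genes. The shE2F1 peak was the wider in 36 of 36 members (73.0% of the genes). The members already marked were thus more strongly enriched with shE2F1, by a ratio larger than the typical gene's, but with 1 library a group this has no replicate check.

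**Figure D2:**
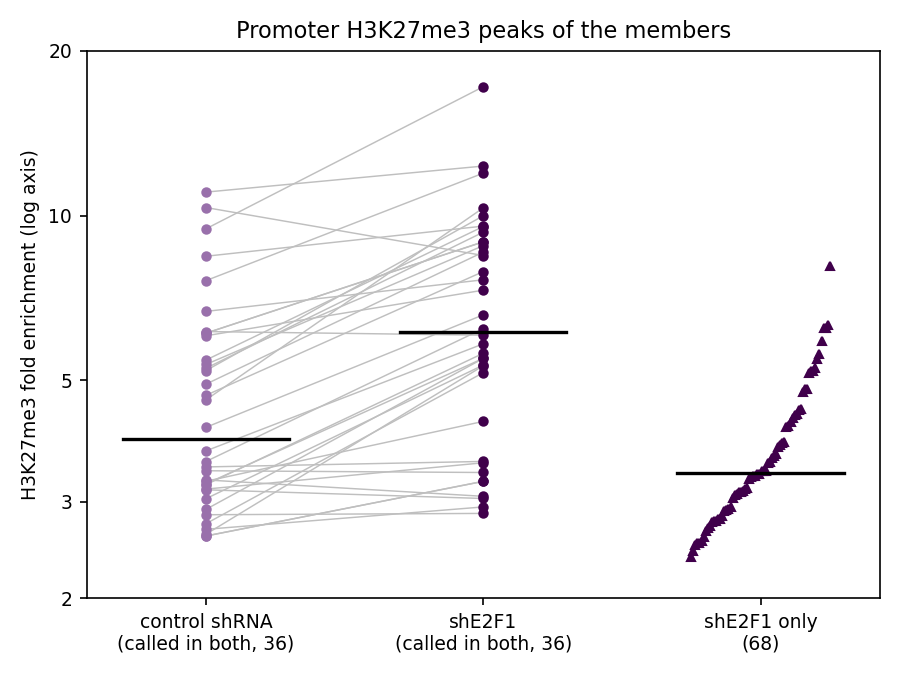
H3K27me3 fold enrichment (logarithmic axis) at member promoters. Lines join the values of the 36 members called in both libraries, triangles are the 68 members called with shE2F1 alone in order of their value, and bars are medians. The median is 3.91 with control shRNA and 6.13 with shE2F1 for members called in both, and 3.39 for members called with shE2F1 alone.

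ZNF615 had the highest fold with shE2F1 (17.2, −log10 q 59.8), from 9.46 (20.3) with control shRNA, and its E2F1 fold in GSK126 was 24.8. ZNF420, a KRAB protein known as a regulator of p53, had an H3K27me3 fold of 7.60 with control shRNA and 12 with shE2F1. ZNF45 had 5.26 and 9.32. ZNF274 was one of 5 members with the opposite direction, at 10.3 with control shRNA and 8.45 with shE2F1, although its peak was wider with shE2F1 (1066 bp, from 442 bp). ZNF444, named after its value was seen, had the highest −log10 q with control shRNA (33.4) and little difference in fold (11 and 12.3).

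Among the 68 members called with shE2F1 alone the fold was lower, with a median of 3.39 (2.38 to 8.08) and a −log10 q of at least 5 in 22. By −log10 q, ZNF653 was the strongest (fold 8.08, −log10 q 21.0), followed by ZNF419 (5.91, 16.2) and ZNF221 (5.47, 13.9). ZNF569 and ZNF570, which are transcribed away from each other, share 1 peak between them (6.22, 12.7), and ZNF614 had 4.41 (12.5). ZNF419 and ZNF221 are among the 3 members whose promoters hold under 90% of unique words (84.3 and 89.6%). ZNF419 had no E2F1 peak in any list, while the other 5 had one in GSK126. Only ZNF229 was called with control shRNA alone (fold 2.90, −log10 q 1.63), and with a distance of 2000 bp no member was.

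**Figure D3:**
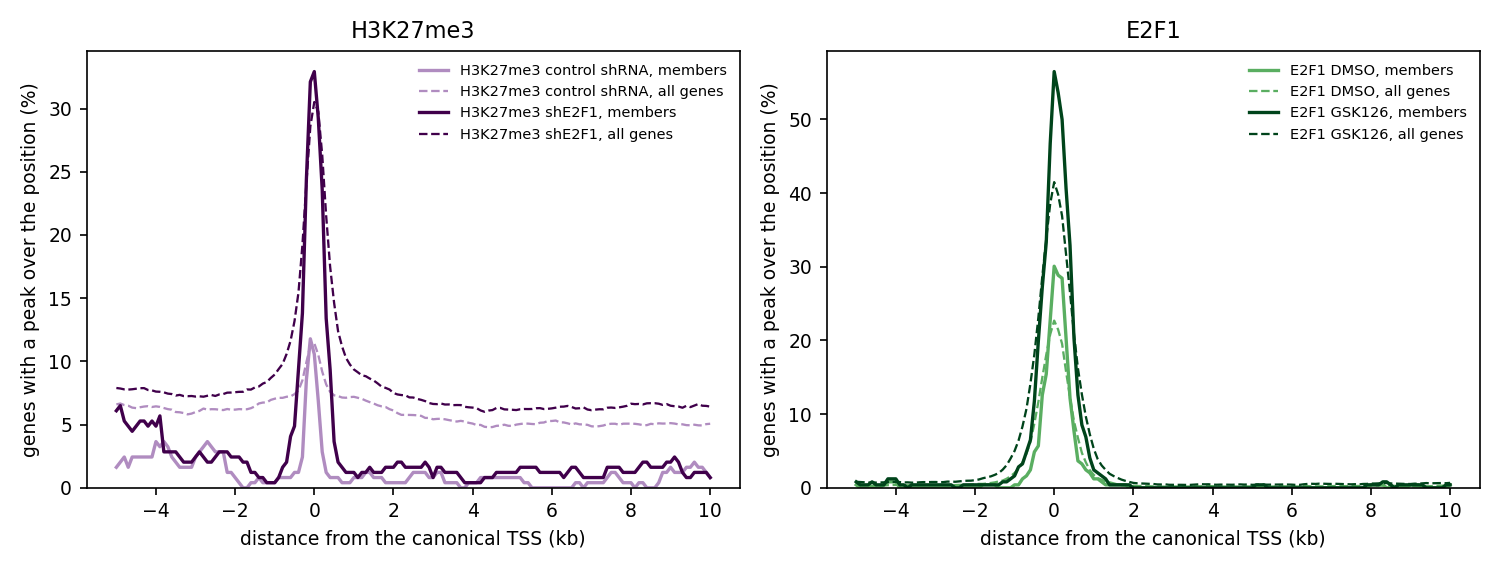
Share of genes with a peak over each position from 5 kb upstream to 10 kb downstream of the canonical TSS, for the 246 members (solid) and all 20046 protein-coding genes (dashed), with H3K27me3 on the left and E2F1 on the right. At the TSS 10.6% of members were covered by H3K27me3 with control shRNA and 32.9% with shE2F1, and 2 kb downstream 0.407% and 1.63%, against 6.12% and 7.5% of all genes.

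The calls seldom reached into the genes. Of the 37 members with a promoter peak in control shRNA 33 had no covered base beyond 1000 bp of their TSSs (89.2%, against 39.7% of all genes called), and with shE2F1 91 of 104 had none (87.5%, against 62.2%). Over all members together H3K27me3 covered 1.45% of the gene bodies with control shRNA and 2.75% with shE2F1, against 4.48% and 5.71% over all genes. At least 20% of the body was covered in 2 members with control shRNA (0.813%, background 9.7%) and in 4 with shE2F1 (1.63%, background 12.5%). The ZNF-numbered genes of other chromosomes lay between members and all genes. Their bodies were covered to 20% or more in 3.44% with control shRNA and 4.20% with shE2F1. Over all of them together the cover was 2.67% and 4.03%. Peaks with a −log10 q of 2 or more left 1 member in each library, against 3.47% of all genes with control shRNA and 3.67% with shE2F1. Those of 5 or more left 0, against 0.0449% and 0.19% of all genes, so nearly all covered bodies were lost over all genes too. The terminal exon, which holds the finger array, was covered to 20% or more in 5 members with control shRNA and 4 with shE2F1 (6.97% and 8.68% of all genes). The most covered terminal exon with control shRNA was that of ZNF541, outside the clusters (99.0%, and 23.7% with shE2F1), named after its value was seen.

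The gene bodies with the most cover were few. ZNF229 (chr19:44417519-44448578) and ZNF285 (chr19:44382298-44401608), neighbours in cluster 7, were covered over 47.8% and 38.6% of the body with control shRNA and over 64.6% and 66.6% with shE2F1. In the terminal exon the cover was 60.3% and 77.9% for ZNF229 and 71.2% and 93.7% for ZNF285. Neither had an E2F1 promoter peak in any list. ZNF560 in cluster 2 had 6.57% with control shRNA and 23.4% with shE2F1, and ZNF135 in cluster 10 had 6.33 and 22.5%, with no promoter peak of either kind. ZNF556 in cluster 1 (14.9 and 2.41%) and ZNF534 in cluster 8 (13.7 and 7.93%) were covered less with shE2F1, and ZNF333, outside the clusters, had 13.9 and 15.9%. ZNF577 was also covered less in the body with shE2F1 (5.22 and 2.16%), although its promoter was called only there (fold 5.19). ZNF284 (1.5 and 1.48%) was the only other member with less cover in shE2F1.

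**Figure D4:**
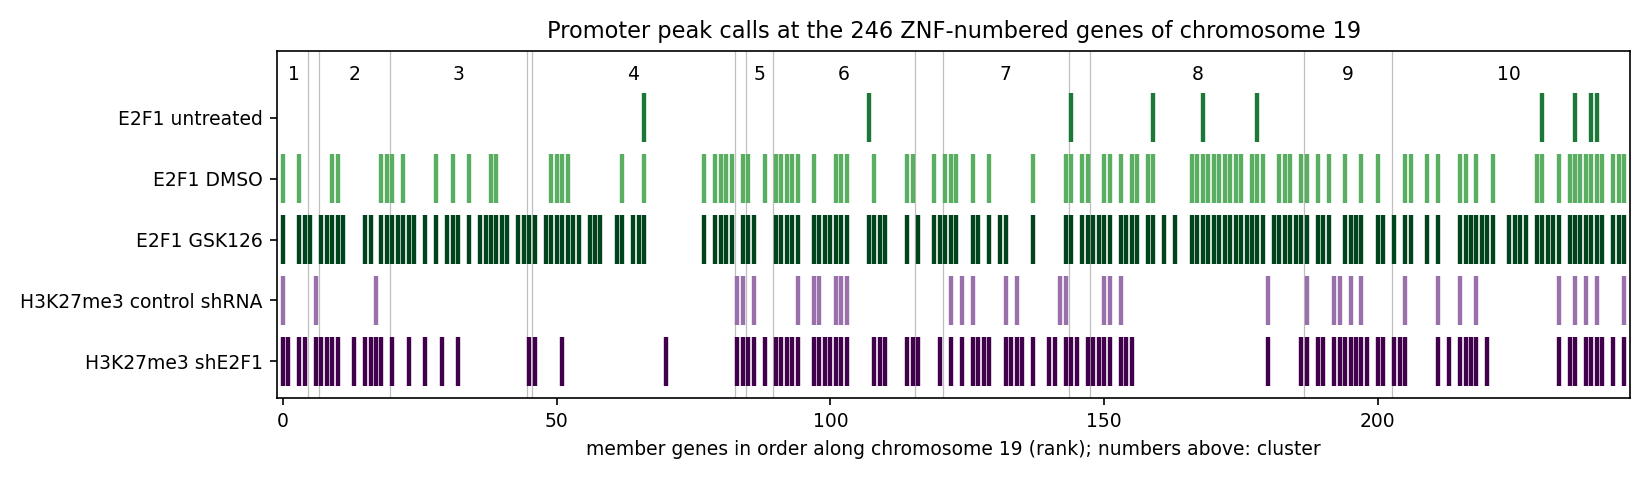
Promoter calls at the 246 members in their order along chromosome 19, 1 column per member and 1 row per peak list, filled where a peak was called. Numbers at the top are the clusters, and grey lines separate them. H3K27me3 with control shRNA is absent from clusters 3 and 4, and stretches of clusters 3, 4, 8 and 10 hold E2F1 peaks with no H3K27me3 in either library.

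The clusters differed more in H3K27me3 with shE2F1 than in E2F1 with GSK126. Among clusters of over 5 members the shares ran from 8.11 to 75% for that H3K27me3 library and from 43.5 to 82.1% for E2F1. For H3K27me3 with control shRNA the range was narrower, from 0 to 31.25%. With control shRNA the mark was called at 0 of 25 members of cluster 3 (chr19:11483427-12640098, ZNF653 to ZNF791) and 0 of 37 members of cluster 4 (chr19:19668796-24129968, ZNF101 to ZNF254), which allows shares of up to 13.7% and 9.49%. With shE2F1 it was called at 5 (20.0%) and 3 (8.11%) of them. Cluster 8 (chr19:51571283-53580269, ZNF175 to ZNF331) was also low with shE2F1, at 9 of 39 (23.1%, interval 11.1 to 39.3%). The shares with shE2F1 were 4 of 5 in cluster 1, 9 of 13 in cluster 2, 3 of 5 in cluster 5, 17 of 26 in cluster 6, 14 of 23 in cluster 7, 12 of 16 in cluster 9 and 19 of 43 in cluster 10, and 9 of 14 outside the clusters. E2F1 in GSK126 did not follow that order, since 19 of 25 members of cluster 3 (76.0%), 21 of 37 of cluster 4 (56.8%) and 32 of 39 of cluster 8 (82.1%, interval 66.5 to 92.5%) were called. The lowest E2F1 share among clusters of over 5 members was in cluster 7, at 10 of 23 (43.5%).

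**Figure D5:**
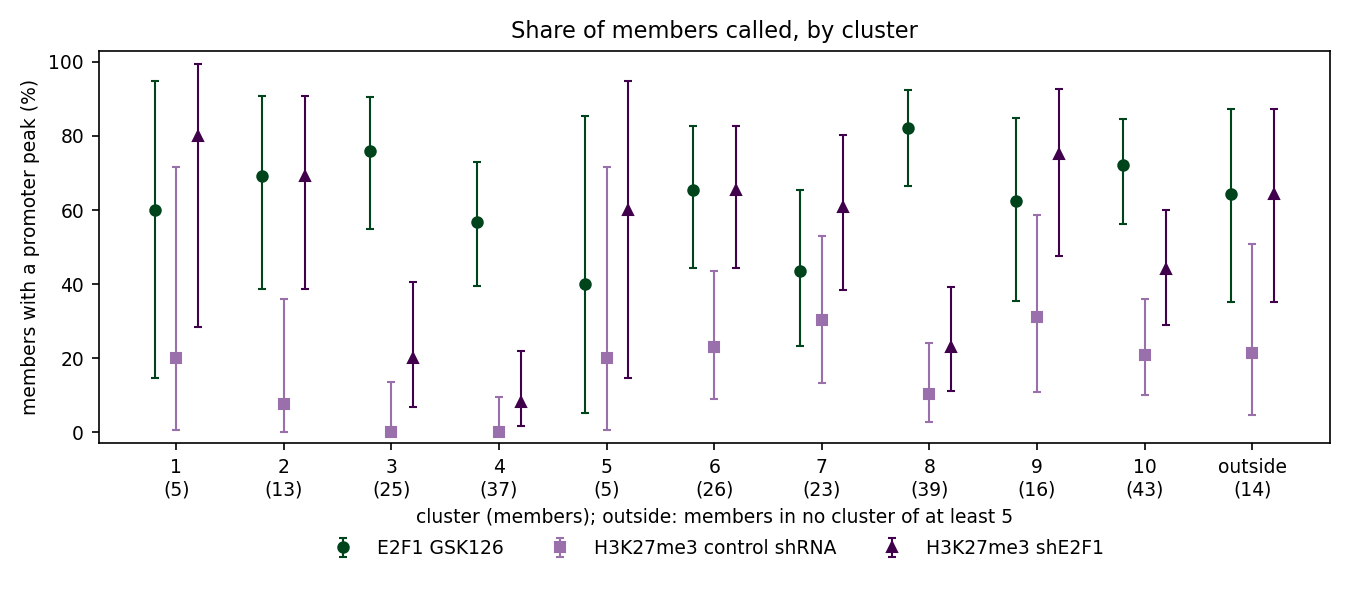
Share of members with a promoter peak in each cluster, for E2F1 in GSK126 and H3K27me3 in both libraries, with the number of members under each cluster and exact 95% intervals as bars. Clusters 3, 4 and 8 have the lowest shares for H3K27me3 with shE2F1 (20.0, 8.11 and 23.1%), and their shares for E2F1 are 76.0, 56.8 and 82.1%.

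Clusters 3 and 4 were set against the other 8 clusters after these values were seen, so the contrast is a description. Their 62 members were called in GSK126 about as often as the 170 others (64.5 and 67.1%) but less often in DMSO (29 and 45.9%) and in untreated cells (1.61 and 4.71%). With shE2F1 H3K27me3 was called at 8 (12.9%), against 87 (51.2%). Of the members with a GSK126 E2F1 peak, 6 of 40 in clusters 3 and 4 (15%) and 69 of 114 in the others (60.5%) carried it. The promoters differed in sequence too, with a median ratio of observed to expected CpG in the RefSeq promoters of 0.521 against 0.817 and a median GC content there of 57.3 against 61%, while over the 2 kb around the start GC content was 51.2 and 52.4%. In bands of that last value H3K27me3 was called with shE2F1 at 2 of 27 against 24 of 47 members below 50%, 0 of 18 against 30 of 68 from 50 to 55%, 5 of 16 against 18 of 39 from 55 to 60% and 1 of 1 against 15 of 16 above. The part of CpG content in the contrast was not tested. Among the other genes inside the clusters H3K27me3 was called in shE2F1 at 0 of 13 in cluster 3 and 0 of 3 in cluster 4. It was called at 12 of 15 in cluster 2, 5 of 6 in cluster 6 and 8 of 13 in cluster 7. In clusters 8, 9 and 10 it was called at 5 of 15, 12 of 23 and 7 of 22.

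Unmarked members stood in long rows. The longest run of neighbouring members without H3K27me3 in shE2F1 was 24, from ZNF841 to ZNF665 in cluster 8 (chr19:52064465-53193386), and it held no peak with control shRNA either. Of these 24 members 3 had an E2F1 peak in untreated cells (ZNF766, ZNF83 and ZNF347), 16 in DMSO and 19 in GSK126, with a median GSK126 fold of 10.2 against 7.03 over all members called. Within the run, 14 neighbours from ZNF808 to ZNF665 were each called in GSK126, the longest such row on the chromosome. The next runs without H3K27me3 were of 18 members from ZNF90 to ZNF676 in cluster 4, 11 of them called in GSK126, and of 12 members each from ZNF20 to ZNF791 in cluster 3, from ZNF551 to ZNF256 in cluster 10 and from ZNF98 to ZNF254 in cluster 4. These runs were picked for their length and have no test.

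Members without E2F1 also stood in rows, the longest of them a row of 10 with no peak in any list, from ZNF208 to ZNF730 in cluster 4 (chr19:21932958-23147221). Of these 10, 1 had H3K27me3 with shE2F1 and 0 had it with control shRNA. Rows of 5 (ZNF235 to ZNF229, which includes the covered bodies of ZNF285 and ZNF229) and of 4 (ZNF224 to ZNF226) stood in cluster 7.

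With shE2F1, H3K27me3 was called more often at members with a GSK126 E2F1 peak than at members without, as over all genes. Of the 163 members with a GSK126 E2F1 peak 81 had H3K27me3 with shE2F1 (49.7%, interval 41.8 to 57.6%), against 23 of the 83 without (27.7%, interval 18.4 to 38.6%). Over all genes the shares were 57.6% and 34.3%. With control shRNA the members' shares were 17.2% (28 of 163, interval 11.7 to 23.9%) and 10.8% (9 of 83, interval 5.08 to 19.6%). These intervals overlap. Over all genes the share was lower with a GSK126 peak, at 18.9% against 27.6%. In ZNF-numbered genes of other chromosomes the shares were 18.6% and 17.6%. In 77 of the 81 members the E2F1 peak overlapped the H3K27me3 peak (95.1%, against 88.3% of all such genes), with a median of 158 bp between summit and midpoint. The libraries come from differently treated cells, so the overlap does not show both on 1 molecule. Of the 10 members with an untreated E2F1 peak, 2 had H3K27me3 with control shRNA (ZNF837 and ZNF274) and 4 with shE2F1, ZNF296 (3.13) and ZNF497 (2.5) being added. Over all genes with an untreated E2F1 peak the shares were 18.7% with control shRNA and 61.2% with shE2F1. In all, 83 members had both kinds of peak in some library (33.7%, against 30.7% of all genes), 82 had E2F1 alone (33.3%, against 21.4%), 22 had H3K27me3 alone (8.94%, against 19.2%) and 59 had neither (24.0%, against 28.7%).

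The 16 members with a well-known role were listed by name. Of these, 2 had an untreated E2F1 peak (12.5%, against 5.83% of all genes), 9 a DMSO peak (56.25%, against 33.4%) and 10 a GSK126 peak (62.5%, against 51.3%). H3K27me3 was called at 2 with control shRNA (12.5%, against 23.1%) and at 8 with shE2F1 (50%, against 46.3%). For GSK126 and both H3K27me3 libraries the shares of all members were 66.3%, 15% and 42.3%, close to those of the 16. In untreated cells and DMSO the shares of all members were 4.07% and 41.1%, below those of the 16. ZNF93, which silences LINE-1 elements, had E2F1 folds of 8.42 in DMSO and 14.4 in GSK126, whereas ZNF91, which silences SVA elements, had no peak in any list. ZNF473, a factor of histone mRNA processing, had folds of 10.5 and 18.4 and an H3K27me3 fold of 2.89 with shE2F1. ZNF587, the paralogue of ZNF417, had E2F1 folds of 5.68 and 11 and no H3K27me3. ZNF432, a factor of DNA repair, had 7.93 and 13.0, and its H3K27me3 peak with shE2F1 (3.53) stood at another start site of the gene.

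ZNF146, which consists of fingers without a KRAB domain, had E2F1 folds of 5.68 in DMSO and 6.17 in GSK126, almost the same. ZNF224, a partner of WT1, had no E2F1 peak and an H3K27me3 fold of 5.15 with shE2F1 alone. Of the members known for promoter DNA methylation in tumours, ZNF154, ZNF671, ZNF132 and ZNF382 had no peak in any of the lists. ZNF331 had E2F1 folds of 7.42 and 13.8 and an H3K27me3 fold of 4.82 with shE2F1 alone, and ZNF582 had a GSK126 fold of 3.76 and an H3K27me3 fold of 2.91 with shE2F1.

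The 13 partners of KRAB silencing that were fixed as a list are not members. E2F1 promoter peaks were called at 3 of them in untreated cells (against 5.83% of all genes), and at 11 in DMSO (33.4%) and in GSK126 (51.3%). ATF7IP, the cofactor of SETDB1, had folds of 11.1 in untreated, 32 in DMSO and 46.9 in GSK126. CBX5, an HP1 protein, had 8.27, 17.8 and 31.6, and TASOR, a subunit of the HUSH complex, 7.64, 13.9 and 25.5. TRIM28, which lies at the end of chromosome 19 next to cluster 10, had 7.21 in DMSO and 14 in GSK126. SETDB1 itself and MPHOSPH8 had no peak of either kind. H3K27me3 was called at 1 of the 13 with control shRNA (DAXX, fold 3.23), against 23.1% of all genes. With shE2F1 it was called at 7 of the 13, against 46.3% of all genes, DAXX (6.07) and SMARCAD1 (4.72) being the highest.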

How the data were processed

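Peak lists of 5 ChIP-seq libraries of MDA-MB-231 cells were analysed, 1 library per group, so no test between conditions was run and folds have no replicate error. The authors trimmed 150-bp paired-end reads with cutadapt 4.5 after FastQC 0.11.5, aligned them to GRCh38 with Bowtie2 2.5.2 and called narrow (E2F1, sonicated chromatin) and broad (H3K27me3, MNase-digested chromatin) peaks per library with MACS2 2.2.9.1. The deposited values used were the fold (a ratio of signal over background), the −log10 p and −log10 q of each peak, and the peak and summit positions. The score that the authors' caller deposited beside them is a scaled copy of significance and was not used as a measurement.

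Genes and TSSs came from GENCODE release 44. Promoter calls, cover of gene bodies and clusters were computed with Python 3.11.15, numpy 2.4.6, pandas 2.3.3 and SciPy 1.17.1, and plots with matplotlib 3.10.9. Fragments at a summit were the whole number that gave both the fold and the −log10 p. The scripts were tested on simulated data. Depth was read from the lowest background of each E2F1 list; that of the H3K27me3 libraries is unknown. Clopper-Pearson intervals cover counting error only.

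Named genes were the members with an untreated E2F1 peak, the 8 with the highest GSK126 fold among the rest, the 6 with the highest −log10 q among those with H3K27me3 in shE2F1 alone and the mirror case, the 4 highest and 4 most different in body cover, the 5 with the most body summits, and listed members of known role and partners. Any other gene named, such as ZNF30, ZNF573, ZNF836 and ZNF610, and the runs and cluster contrast, were chosen after their values were seen. The members and lists were chosen with earlier results of these data known. Of the stretches the rule named, 1 is not reported here.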

Additional observations from a re-analysis of the deposited data

How the results depend on the processing

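The alternatives moved 15 of 66 values past their limit (a count by over 1.5 times) and left 51 within it. Relative to all genes, H3K27me3 promoter calls turned from below to above them at a −log10 q of 5 or more (7.32 against 2.54% with control shRNA, 20.3 against 9.02% with shE2F1), and the motif share turned from above (21.8 against 17.4%) to below within 1000 bp of the canonical TSS (48.0 against 49.1%). With a −log10 q of at least 5, H3K27me3 promoter calls numbered 18 with control shRNA (37 without that limit), 50 with shE2F1 (104) and 32 with shE2F1 alone (68 without it, and 6.54% of all genes at it), and the 1 member called with control shRNA alone was 0 at that limit, for peaks with a −log10 q of 2 or more, and at distances of 500 or 2000 bp. Members with at least 20% of the body covered numbered 2 with control shRNA and 4 with shE2F1, 1 in each when peaks needed a −log10 q of 2 or more and 0 in each at 5 or more, and 5 with control shRNA when the terminal exon alone was scored. Promoters with the E2F motif numbered 47, 17 with a motif longer by 1 base and 118 within 1000 bp of the canonical TSS. The 11 summits in gene bodies in DMSO were 3 at a −log10 q of at least 5. Gaps of 250 or 1000 kb gave 12 or 9 clusters in place of 10. Of the alternatives, 6 were chosen after seeing the data, and without clusters 3 and 4 H3K27me3 was called at 37 members with control shRNA and 96 with shE2F1, while distinct peaks numbered 97 in DMSO, 157 in GSK126, 35 with control shRNA and 100 with shE2F1. No paired analysis was possible because each group holds 1 library. The untreated E2F1 library was the shallowest of the E2F1 libraries, so a member without a peak there may lie below its detection limit.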
